A study of Mus musculus with 6 samples.

Results

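Scavenger receptors are surface and endosomal proteins that macrophages use to bind and take up modified lipoproteins, bacteria, damaged proteins and the remains of dead cells. Genes of 8 such receptors were taken from the table by a list of names that leaves out Cd36: Marco, Msr1 and Colec12 (class A), Scarb1 (class B), Cd68 (class D), Olr1 (class E), Stab1 (class H) and Cd163 (class I). All 8 were found among the 38124 genes of the deposited table. Their levels were read in wild-type C57BL bone-marrow-derived macrophages, which are macrophages grown in culture from marrow precursors. The 3 untreated libraries were set against 3 libraries of macrophages kept for 24 hr with thymocytes, immature T cells of the thymus, at a ratio given as 1:40. The thymocytes had been made apoptotic with dexamethasone, a synthetic glucocorticoid, and were taken off before RNA extraction. The libraries are biological replicates per the series' design text, and they hold no group given dexamethasone without thymocytes.

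The receptor classes share ligands rather than sequence. Class A receptors are trimers with a collagen-like stalk, which in the Msr1 product carries positively charged residues and binds polyanionic ligands such as oxidised lipoprotein. Class B receptors span the membrane at both ends, and Scarb1 takes cholesteryl ester from high-density lipoprotein. The remaining classes include the lysosomal glycoprotein of Cd68, the lectin-like receptor for oxidised lipoprotein of Olr1, the large endocytic receptor of Stab1, which also binds phosphatidylserine on dead cells, and the receptor of Cd163, which clears haemoglobin bound to haptoglobin.

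The shared stalk of class A can be read from the coding sequence, since a collagen-like stretch repeats glycine, codon GGN, followed by any 2 codons. The longest unbroken run of the pattern GGN-NNN-NNN was 81 repeats in Marco, 49 in Colec12 and 25 in Msr1 (longest coding transcript of each gene, GENCODE M21). Runs as long as these occurred in 0.0833%, 0.139% and 0.264% of 21609 coding genes. The longest run was 3 repeats in Stab1 and Cd163, 2 in Scarb1 and Cd68 and 1 in Olr1, lengths that many coding genes reach. The first 10 repeats of the runs in Marco (codons 177 to 206) and Msr1 (codons 277 to 306) are shown because these 2 related genes moved in opposite directions. Capitals mark the glycine codons.
Marco: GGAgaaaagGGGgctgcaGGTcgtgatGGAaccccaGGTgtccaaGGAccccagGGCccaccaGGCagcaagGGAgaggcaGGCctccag
Msr1: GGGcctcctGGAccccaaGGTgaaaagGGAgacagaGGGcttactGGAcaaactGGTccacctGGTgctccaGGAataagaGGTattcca

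Depth was 19315132 to 25933208 mapped reads per library, as recovered from the deposited RPKM (reads per kilobase of gene, scaled to the mapped reads of the library). Pearson r of log2(RPKM + 1) over the tested genes was 0.994 to 0.998 within groups and 0.935 to 0.94 between them. Of the genes of the table, 10173 reached 1 RPKM in at least 3 libraries and were tested with limma on log2(RPKM + 1), with Benjamini-Hochberg adjustment and a threshold of 0.05. With apoptotic thymocytes 18.8% of tested genes were higher and 46% lower, 64.8% in all, so a call alone says little about these receptors. Ranges of the groups did not overlap in 69.6% of tested genes. The split depends on scaling: 1915 genes were higher and 4679 lower as deposited, and 3234 and 2832 with median-of-ratios scaling, because the median log2 change moved from -0.13 to 0.02.

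Of the 8 receptor genes, 4 were higher (Marco, Cd163, Stab1 and Colec12), 3 were lower (Scarb1, Msr1 and Cd68) and Olr1 was too low to be tested. With median-of-ratios scaling 4 were higher and 2 lower, since Cd68 no longer passed. Cd163 passed the filter through the treated libraries alone, so it had to be higher. Of the other 6 tested receptors 3 were higher and 3 lower, beside 18.8% higher and 46% lower among all tested genes. Marco reached the minimum of 1 RPKM in 2 of 3 untreated libraries. A log2 change above 1 with a higher call was seen in 2.46% of tested genes, and Marco, Cd163, Stab1 and Colec12 are among them. Colec12 lies at the edge of that group, at 1.006. Its change was 0.955 without treated replicate 1 and 0.991 without treated replicate 2 or untreated replicate 2. With median-of-ratios scaling it was 1.17. A log2 change below -1 with a lower call was seen in 5.64% on the deposited scale, among them Scarb1. The change of Scarb1 was -0.949 with median-of-ratios and -0.946 with upper-quartile scaling. In RNA of whole cultures, fewer cells that carry a transcript and less of it per cell cannot be told apart.

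**Figure D1:**
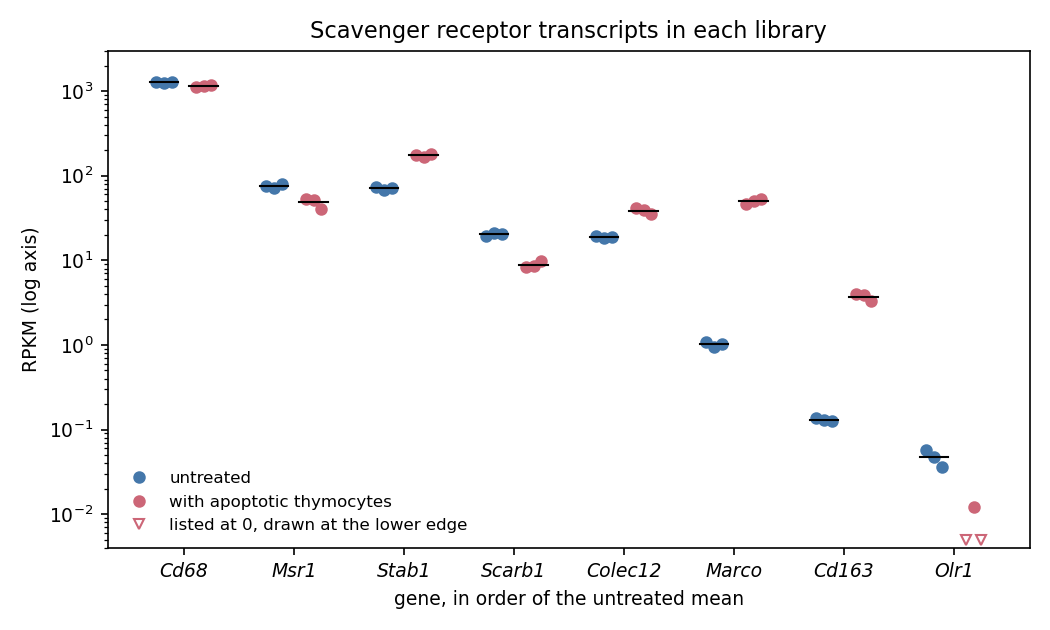
RPKM of each receptor gene (log axis) in the 3 untreated and the 3 treated libraries, 1 point per library, with a black bar at each group mean that lies within the axis. Treated libraries listed at 0 are drawn as open triangles at the lower edge. Marco moves from about 1 to about 50 RPKM, Cd68 lies between 1112 and 1298 RPKM, and Olr1 lies below 0.1 RPKM throughout.

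Among the class A genes, Marco (macrophage receptor with collagenous structure; ENSMUSG00000026390, chromosome 1, 120474538 to 120505084), which binds bacteria and inhaled particles, stood at 1.10, 0.948 and 1.03 RPKM in untreated replicates 1 to 3. In treated replicates 1 to 3 it stood at 46.9, 50.4 and 53.1 RPKM. Every treated library lay far above every untreated one, and the level rose 49.0-fold (log2 change 4.66, SE 0.0583, adjusted p = 7.16e-11, limma). Behind the untreated values are 42, 45 and 47 reads, and behind the treated ones 2280 to 2483. The change was the 6th largest rise of the 10173 tested genes. The level of Marco went from rank 10034 to rank 950 among the tested genes. Genes that missed the filter are not ranked, so an untreated level near 1 RPKM falls near the bottom.

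Msr1 (ENSMUSG00000025044, chromosome 8, 39581700 to 39642678) encodes the type I and II class A receptor, a marker used widely for tissue macrophages. Its values were 75.8, 71.1 and 79.8 RPKM untreated and 53.4, 51.1 and 40.9 RPKM treated. The groups did not overlap and the level fell 1.56-fold (log2 change -0.64, SE 0.0926, adjusted p = 0.000289, limma). Treated replicate 3 was the lowest, and without it the log2 change was -0.52. As a result of the opposite moves, Msr1 exceeded Marco 69.2 to 77.8-fold in untreated libraries, while in treated libraries the ratio was 1.14, 1.01 and 0.77. The 2 genes lay at one level after treatment, with ranges that overlap.

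Colec12 (ENSMUSG00000036103, chromosome 18, 9707648 to 9877995), which joins a collagen-like stalk to a C-type lectin domain that binds sugars, was at 19.2, 18.3 and 18.7 RPKM untreated and 41.5, 39.4 and 35.2 RPKM treated. It rose 2.07-fold (log2 change 1.01, SE 0.0608, adjusted p = 7.30e-07, limma), and the lowest treated library was above the highest untreated one. This receptor is also known from endothelial and stromal cells. Of 8 fibroblast and stromal markers, 0 reached the filter. Their summed level was 2.71 to 3.01 RPKM untreated and 1.83 to 2.15 RPKM treated. Their most abundant members with treatment were Dcn at 0.568, Col1a1 at 0.496 and Col1a2 at 0.385 RPKM. Of 8 endothelial markers, Kdr and Vwf were tested and both were lower, Kdr from 6.97 to 2.28 RPKM and Vwf from 6.03 to 1.32 RPKM, while Lyve1 was at 0 in untreated libraries and at 0.245 RPKM with treatment. Their summed level was 13.1 to 14.3 RPKM untreated and 4.12 to 4.34 RPKM treated. The part of stromal or endothelial cells in the level of Colec12 was not tested.

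Scarb1 (ENSMUSG00000037936, chromosome 5, 125277087 to 125341094), the high-density lipoprotein receptor, showed the largest fall of the tested receptors on the log2 scale, and did so too in each of the alternatives run. It stood at 19.6, 20.9 and 20.5 RPKM untreated and at 8.42, 8.63 and 9.71 RPKM treated. The level fell 2.28-fold (log2 change -1.11, SE 0.0583, adjusted p = 2.80e-07, limma), with no overlap of the groups. Before treatment Scarb1 and Colec12 were close, at 20.4 ± 0.645 and 18.7 ± 0.436 RPKM (mean ± SD, n = 3). With apoptotic thymocytes Colec12 was 3.62 to 4.93-fold above Scarb1.

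Stab1 (stabilin-1; ENSMUSG00000042286, chromosome 14, 31139013 to 31168641) was at 73.5, 68.0 and 72.5 RPKM untreated and 175.9, 168.1 and 179.0 RPKM treated. It rose 2.44-fold (log2 change 1.28, SE 0.0472, adjusted p = 2.69e-08, limma), and its treated range lay wholly above the untreated one. Untreated Stab1 was level with Msr1, at 0.908 to 0.970 of it. After treatment it was 3.29 to 4.38 times Msr1. The 3' end of Stab1 overlaps the end of Nt5dc2 on the other strand by 109 bp in the deposited coordinates, and Nt5dc2 rose from 34.6 ± 1.16 to 56.6 ± 3.59 RPKM (mean ± SD, n = 3). Whether the deposited counting used strand is not given in the sources used here, and the part of shared reads in the values was not tested. The related gene Stab2 was too low to be tested, at 0.140 RPKM untreated and 0.602 RPKM treated.

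Cd163 (ENSMUSG00000008845, chromosome 6, 124304651 to 124330527), the haemoglobin-haptoglobin receptor, was nearly absent from untreated libraries, at 0.138, 0.130 and 0.125 RPKM from 12, 14 and 13 reads. In treated libraries it stood at 3.95, 3.88 and 3.27 RPKM from 460, 397 and 346 reads. Cd163 passed the filter through the treated libraries alone, so it had to be higher, and its adjusted p adds no separate evidence. The groups were far apart and the ratio of means was 28.2 (log2 change 2.05, SE 0.0700, adjusted p = 1.66e-08, limma). Because 1 RPKM is added before the logarithm, the log2 change understates that ratio, and with 0.1 RPKM added it was 4.03. Even so, treated Cd163 remained the lowest of the tested receptors by level. Its counterpart ligand gene Hp, which encodes haptoglobin, rose from 0.266 ± 0.0950 to 17.8 ± 1.03 RPKM (log2 change 3.89). Hp too passed the filter through the treated libraries alone.

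Cd68 (ENSMUSG00000018774, chromosome 11, 69664213 to 69666153), a heavily glycosylated protein of late endosomes and lysosomes that serves as a general macrophage marker, was by far the most abundant of the receptors. Its values were 1280, 1245 and 1298 RPKM untreated and 1112, 1139 and 1181 RPKM treated, the 25th and 30th highest means of the tested genes. The groups did not overlap, but the difference was small, a fall of 1.11-fold (log2 change -0.16, SE 0.0501, adjusted p = 0.0227, limma). The median tested gene changed by -0.13, nearly as much. With median-of-ratios scaling the log2 change of Cd68 was 0.015 (adjusted p = 0.833), and the call was also lost with no filter and without untreated replicate 1, untreated replicate 3 or treated replicate 2 (adjusted p = 0.0831, 0.108 and 0.0847). A lower level of Cd68 therefore holds only on the deposited scale and not in all of its alternatives.

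Olr1 (lectin-like oxidised lipoprotein receptor; ENSMUSG00000030162, chromosome 6, 129485246 to 129507165) was at the limit of detection. It had 4, 4 and 3 reads in untreated libraries (0.0580, 0.0469 and 0.0364 RPKM), and 0, 1 and 0 reads in treated libraries. At these depths 3 reads, the limit that a count of 0 allows, are worth 0.0324 to 0.0435 RPKM on this gene. Over each group, 11 reads against 1 give a ratio of 11.99 per unit of depth, with an exact 95% interval of 1.74 to 516 that covers counting error only. An exact permutation test of the mean RPKM, two-sided, gave p = 0.1, the smallest that 3 against 3 libraries allow. The gene next to it at 12469 bp, Clec7a (Dectin-1, a beta-glucan receptor), was abundant, and fell from 153.7 ± 3.49 to 44.1 ± 3.38 RPKM (log2 change -1.78, adjusted p = 1.33e-08, limma).

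**Figure D2:**
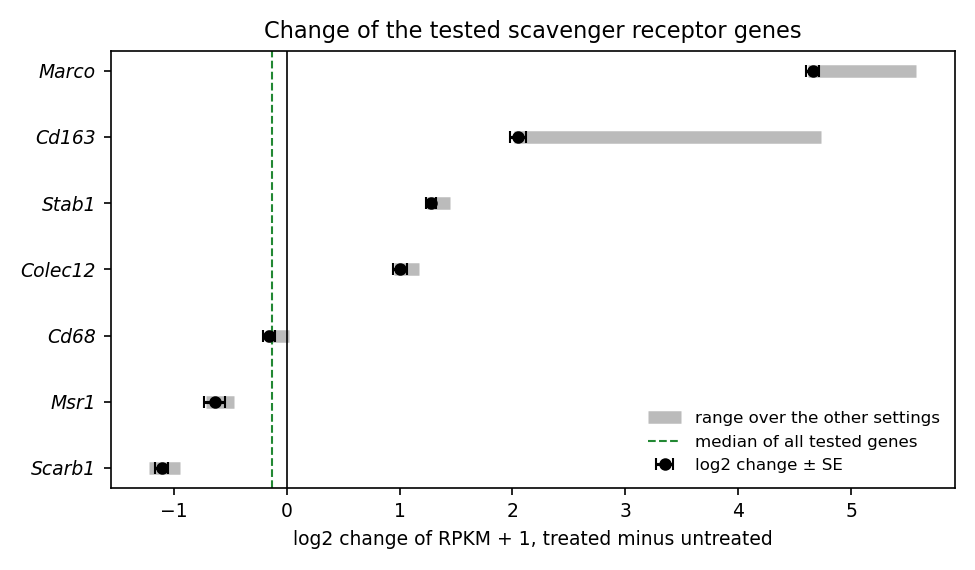
Log2 change of RPKM + 1, treated minus untreated, for the 7 tested receptor genes. Points and bars give the change ± SE from the fit to all tested genes, grey bands the range over the alternative settings, and the dashed line the median of all tested genes (-0.13). Marco and Cd163, which start near or below 1 RPKM, have the widest bands, and Cd68 alone has a band that reaches across 0.

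In order of level the untreated macrophages had Cd68 first, then Msr1 and Stab1, whose ranges overlap, then Scarb1, Colec12, Marco, Cd163 and Olr1. With apoptotic thymocytes the order was Cd68, Stab1, Marco, Msr1, Colec12, Scarb1, Cd163 and Olr1. Here the ranges of Marco and Msr1 overlap, and those of Msr1 and Colec12 do too (40.9 to 53.4 and 35.2 to 41.5 RPKM). Cd68 made up 87.2% ± 0.181 of the summed RPKM of the 8 genes untreated and 77.9% ± 0.760 treated (mean ± SD, n = 3), a share that does not depend on scaling. The share of Stab1 went from 4.88% to 11.9%, that of Marco from 0.0700% to 3.41%, that of Msr1 from 5.17% to 3.31% and that of Scarb1 from 1.39% to 0.607%. The summed level itself was 1461 ± 33.7 RPKM untreated and 1468 ± 31.0 RPKM treated as deposited, with overlapping ranges, and 1372 ± 36.7 and 1552 ± 48.9 with median-of-ratios scaling, without overlap. Without Cd68 the sum was 187 ± 6.90 and 324 ± 4.97 RPKM as deposited, and 176 ± 7.11 and 343 ± 3.64 with that scaling.

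**Figure D3:**
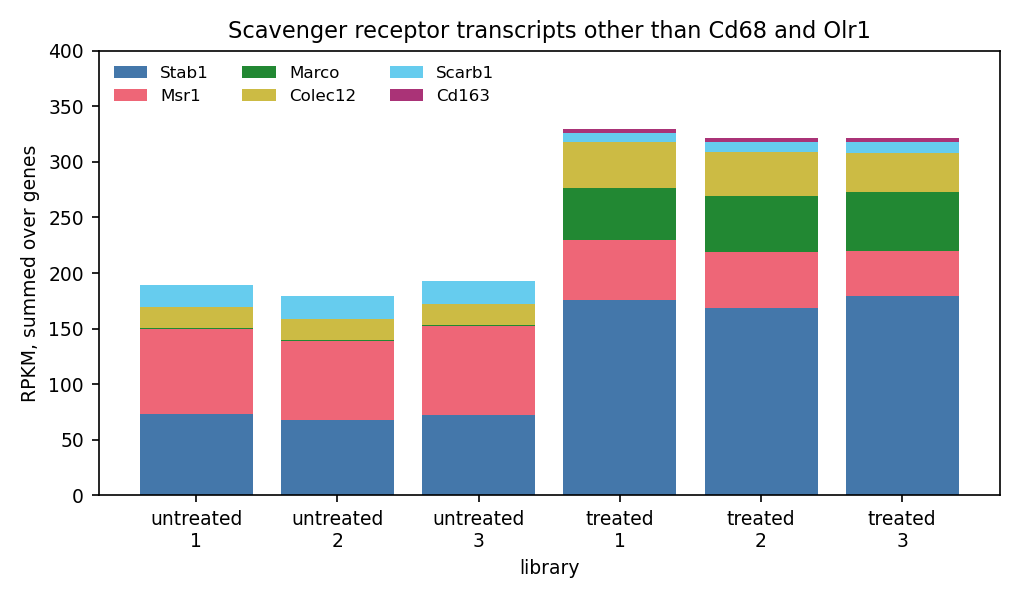
Summed RPKM of Stab1, Msr1, Marco, Colec12, Scarb1 and Cd163 in each of the 6 libraries, as deposited. The stacks reach about 187 RPKM in untreated and about 324 RPKM in treated libraries, with larger Stab1, Marco and Colec12 segments and smaller Msr1 and Scarb1 segments in the treated ones.

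Treated replicate 3 was the lowest or highest of its group for each of the 7 tested receptors. It was lowest for Msr1, Cd163 and Colec12 and highest for Marco, Scarb1, Stab1 and Cd68. Treated replicate 1 lay at the opposite end for all of these but Stab1. How often either library is at an end over all tested genes was not counted. In read counts treated replicates 1 and 3 differed by a chi-square per gene of 16.3, against 1.67 to 6.65 for the other pairs within groups. Without treated replicate 3 the 7 calls were the same. The log2 changes were then 4.62 for Marco, 2.12 for Cd163, 1.26 for Stab1, 1.07 for Colec12, -0.18 for Cd68, -0.52 for Msr1 and -1.16 for Scarb1.

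The genes whose profile over the 6 libraries came closest to each receptor were found by the root-mean-square distance of log2(RPKM + 1), after each gene's own mean was taken off. For Marco they were Fkbp5 (distance 0.0640), a glucocorticoid-induced co-chaperone gene, and Saa3 (0.188). For Cd163 they were Mertk (0.0354), the receptor kinase for apoptotic cells, and Ms4a6c (0.0565). The matches of Marco and Cd163 hold on the log2(RPKM + 1) scale, which shrinks the changes of these 2 genes. The ratio of means was 49.0 for Marco and 36.6 for Fkbp5, and 28.2 for Cd163 and 4.33 for Mertk. Stab1 was closest to Maoa (0.0356) and Slc22a4 (0.0370), and Colec12 to Tlr7 (0.0265), a receptor for single-stranded RNA, and Mmp27 (0.0410). Msr1 was closest to Suz12 (0.0238) and Acbd5 (0.0309), Scarb1 to Plekho2 (0.0230) and Ahsa1 (0.0251), and Cd68 to Sh2b3 (0.0136) and Vps33a (0.0140). With 2 groups such likeness mostly reflects a like change between them.

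Promoter sequences were at hand for 5 of the receptor genes (RefSeq, GRCm38.p6, 250 bases before to 50 after the start). The start used for Marco lies inside its deposited coordinates, which reach 120505084, so the last bases shown before it fall within them. Those of 3 genes that rose, Marco, Stab1 and Cd163, are shown so that the letters can be read beside the changes. Capitals mark matches, on either strand, to motifs searched in all 32851 promoter windows.
Marco, chr1:120505025-120505274, minus strand: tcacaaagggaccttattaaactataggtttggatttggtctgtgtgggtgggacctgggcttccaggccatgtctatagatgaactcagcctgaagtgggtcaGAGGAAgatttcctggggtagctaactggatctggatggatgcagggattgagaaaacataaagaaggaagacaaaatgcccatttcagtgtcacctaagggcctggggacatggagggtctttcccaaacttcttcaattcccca
Stab1, chr14:31168642-31168891, minus strand: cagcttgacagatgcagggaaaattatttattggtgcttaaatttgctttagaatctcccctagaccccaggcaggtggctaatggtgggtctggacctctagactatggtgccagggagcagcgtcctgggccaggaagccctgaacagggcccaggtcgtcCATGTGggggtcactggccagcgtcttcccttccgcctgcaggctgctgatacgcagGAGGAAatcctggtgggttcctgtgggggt
Cd163, chr6:124304401-124304650, plus strand: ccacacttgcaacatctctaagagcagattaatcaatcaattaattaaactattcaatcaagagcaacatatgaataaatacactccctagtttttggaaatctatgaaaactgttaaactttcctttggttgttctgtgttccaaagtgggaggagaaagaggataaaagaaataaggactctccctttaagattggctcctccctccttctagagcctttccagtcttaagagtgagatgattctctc

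The E-box CATGTG, a form read by MITF and its relatives, was found in Marco and Stab1 among the 5 receptor windows and in 14.2% of all windows. In Stab1 it began at position -87 from the start, and in Marco it lay after the start as the palindrome in cagtttCACATGTGaaca, where both strands hold it (chr1:120504984-120505001). The PU.1 core GAGGAA was found in Marco, Stab1, Cd68 and Olr1 and in 28.3% of all windows. The AP-1 site TGANTCA was found in Cd68, at positions -149 and -24 from the start, and in Olr1, against 7.81% of all windows. In 0 of the 5 receptor windows there was a match to the antioxidant response core TGACNNNGC, the glucocorticoid receptor core ACANNNTGT, the E-box CACGTG or the MAF half-site TGCTGAC, which 12.4%, 6.85%, 7.15% and 4.67% of all windows hold. The Cd163 window held 0 of the 7 motifs. These are matches of letters in a short window and say nothing of binding.

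Of 22 genes for transcription factors and partners known to act on scavenger receptor genes, 7 were higher, 12 lower and 3 did not pass. The median log2 change was -0.27. Of all tested genes 18.8% were higher and 46% lower, with a median of -0.13. Tfec, a relative of MITF found in macrophages, rose 3.34-fold from 6.60 ± 0.206 to 22.1 ± 0.993 RPKM, while Mitf itself fell from 12.4 to 5.64 RPKM. Srebf2, the main activator of cholesterol synthesis genes, fell from 38.5 ± 0.448 to 11.7 ± 0.699 RPKM and Pparg fell 2.64-fold. Nr3c1, the glucocorticoid receptor gene, was at 13.7 RPKM untreated and 7.13 RPKM treated, and was called lower.

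Scavenger receptors outside the set of 8 went both ways, as did the tested genes as a whole, 18.8% higher and 46% lower. Of 27 entries 25 were found and 9 were tested, of which 3 were higher, 5 lower and 1 did not pass (4 higher and 5 lower with median-of-ratios scaling), with a median log2 change of -0.46 against -0.13 for all tested genes. Cd5l, a soluble protein with scavenger receptor cysteine-rich domains like those of Cd163, rose 2.13-fold from 12.8 ± 0.421 to 27.2 ± 0.547 RPKM. Cxcl16, a membrane-bound chemokine that binds oxidised lipoprotein, fell 3.52-fold from 74.4 ± 2.06 to 21.1 ± 1.08 RPKM, and Clec7a fell as given above. In the LAMP family, to which Cd68 belongs, Lamp1 rose 1.69-fold from 1026 ± 17.2 to 1734 ± 112 RPKM, and Lamp2 was at 67.0 and 69.0 RPKM (adjusted p = 0.42, limma). With median-of-ratios scaling Lamp1 and Lamp2 both passed as higher, and Cd68 did not pass.

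Genes that handle what the receptors bring in were described in the same way, beside 18.8% higher and 46% lower among all tested genes. Of 17 tested genes of lipoprotein uptake and sterol handling, 9 were higher, 6 lower and 2 did not pass, with a median log2 change of 0.17. Among the members with the smallest p, Lpl, a lipase that frees fatty acid from lipoproteins, fell from 625 ± 11.97 to 80.8 ± 7.29 RPKM, and Cav1, a caveolar coat protein, from 6.46 ± 0.130 to 0.993 ± 0.0238 RPKM. Members that were higher include the receptor genes Lrp8, from 1.58 ± 0.0441 to 3.43 ± 0.246 RPKM, and Sorl1, from 7.84 ± 0.462 to 13.99 ± 0.693 RPKM. Of 10 tested genes that act on haemoglobin and heme after uptake, 9 were higher and 1 lower, with a median log2 change of 1.25. Hp passed the filter through the treated libraries alone, so it had to be higher, and of the other 9 genes 8 were higher and 1 lower, with a median of 1.03. Hmox1, Slc40a1 and Hp had the smallest p of that list, and Mfsd7b (current symbol Flvcr1), a heme exporter gene, was the member that was lower. Of 8 tested genes for shedding proteases and adaptors of such receptors, 3 were higher, 2 lower and 3 did not pass. The lower calls went from 2 to 1 under median-of-ratios scaling. Adam17, a protease known to release the ectodomain of the Cd163 product, fell 1.62-fold from 39.1 ± 1.09 to 24.2 ± 0.717 RPKM, Ap1b1 rose from 34.9 ± 0.682 to 48.0 ± 1.61 RPKM, and Adam10 rose from 45.3 ± 0.821 to 54.4 ± 4.83 RPKM.

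**Figure D4:**
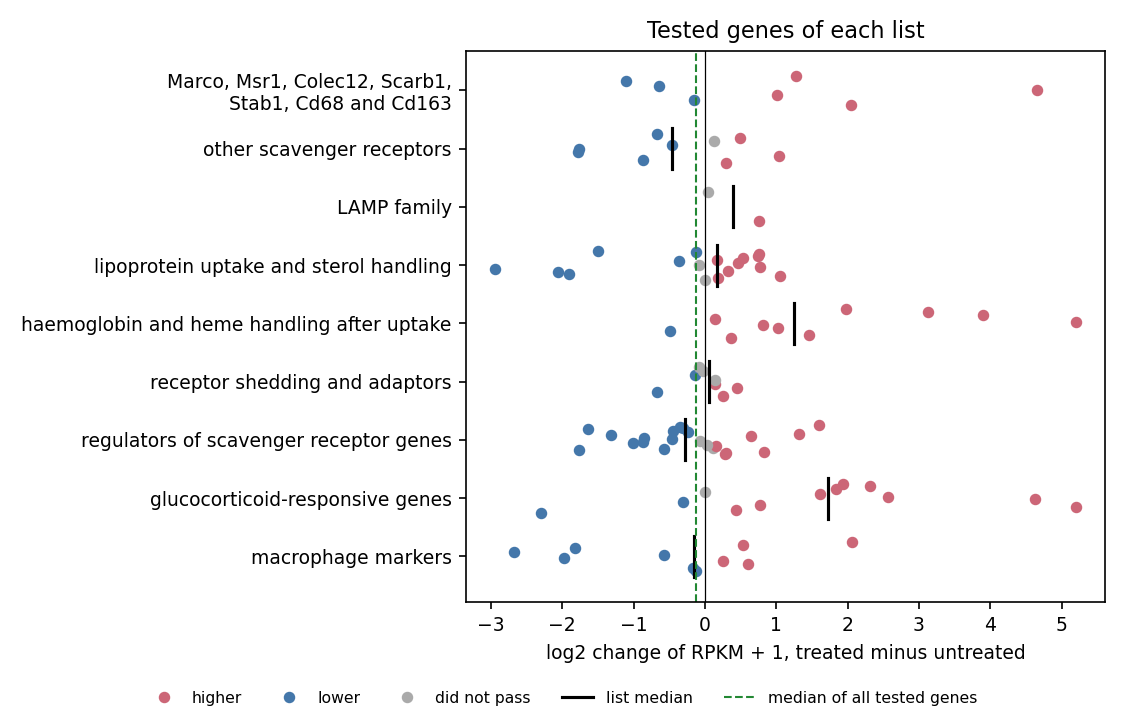
Log2 change of RPKM + 1, treated minus untreated, of each tested gene in 9 lists, 1 point per gene, spread vertically for legibility. Colours give the call, black bars the list medians (not drawn for the receptors named in the top row), and the dashed line the median of all tested genes (-0.13). Genes of haemoglobin and heme handling and glucocorticoid-responsive genes lie mostly to the right, with medians of 1.25 and 1.72, which include Hp, Ddit4 and Zbtb16.

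Markers of other cells and treatments moved beside these values, where 18.8% of all tested genes were higher and 46% lower. Of 12 tested glucocorticoid-responsive genes, 9 were higher, 2 lower and 1 did not pass, with a median log2 change of 1.72. Ddit4 and Zbtb16 passed the filter through the treated libraries alone, so they had to be higher, and of the other 10 genes 7 were higher, 2 lower and 1 did not pass, with a median of 1.19. Fkbp5, Ddit4 and Thbs1 had the smallest p of the list, and Thbs1 rose from 15.9 ± 0.172 to 59.4 ± 0.799 RPKM. The genes that were lower were Anxa1, from 391 ± 16.3 to 79.0 ± 5.20 RPKM, and Errfi1, from 3.18 to 2.39 RPKM. Sgk1 did not pass. Cd163 is a known glucocorticoid-induced gene, and the part of dexamethasone in its rise or in that of Marco was not tested. Erythroid genes had 0 to 4 reads per untreated and 19 to 25 per treated library, with Hba-a2, Hba-a1 and Hbb-b1 at 0.704, 0.233 and 0.161 RPKM with treatment, genes whose near-identical copies can share reads, and their part in the rise of Cd163 and Hp was not tested either.

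Of 16 thymocyte and T cell markers, 5 were at 0 in all 6 libraries (Cd3e, Cd8b1, Rag2, Ptcra and Themis), and their summed level was 4.41 to 4.66 RPKM untreated and 2.26 to 2.78 RPKM treated. Most of it was Cd4, at 4.32 and 2.14 RPKM, and Trbc2 and Trbc1 came next in treated libraries at 0.0815 and 0.0572 RPKM. Of 8 granulocyte markers, S100a8 and Ngp were tested and both were higher, S100a8 from 5.86 to 26.3 RPKM and Ngp from 0.181 to 2.81 RPKM. Ngp passed the filter through the treated libraries alone, so it had to be higher. Camp was at 0.758 RPKM with treatment, and Ly6g was at 0 in all libraries. The part of such cells in the values was not tested.

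The label of the cells was met by their markers. All 10 macrophage markers tested were expressed, 4 higher and 6 lower with treatment, beside 18.8% higher and 46% lower among all tested genes. Lyz2, C1qb and C1qc were the most abundant in treated libraries (19418, 1827 and 707 RPKM). Fcgr1, a high-affinity antibody receptor gene, fell from 52.7 ± 2.54 to 7.43 ± 0.401 RPKM and Itgam, an integrin chain gene, from 119 ± 1.74 to 33.1 ± 0.695 RPKM, while Mertk rose 4.33-fold. These 3 markers had the smallest p of the list. Cd68 (log2 change -0.16) changed by less than they did, and by about as much as Adgre1 (-0.13) and C1qa (-0.17).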

How the data were processed

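The deposited table gives RPKM per gene for 38124 genes, 1 column per library, per the file headers, on mouse GRCm38 (mm10), per the submitters' processing notes. The aligner, counting program, gene model release, strand use and handling of reads that match several genes are not given in the sources used here. TruSeq stranded libraries were read on the NextSeq platform, per the labels' protocols. Each column matched 1 sample title, and 0 columns belonged to no sample.

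Depth and reads were recovered by finding the library totals and gene lengths (up to 30000 bp) that make all 6 read numbers whole within 0.001 reads. This worked for all 18737 genes above 0, of which 9371 had the union exon length of GENCODE M21. Intervals from reads cover counting error only.

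Genes that reached 1 RPKM in 3 libraries or more were fitted in limma 3.58.1 (R 4.3.3) on log2(RPKM + 1), with an intensity trend and group as the only term, and tested on simulated data first. Benjamini-Hochberg adjustment ran over all 10173 tested genes. Folds are ratios of mean RPKM, which differ from the log2(RPKM + 1) change for low genes. Alternatives were a pseudocount of 0.1, no filter, a filter at 5 RPKM, 2 scalings, no trend, the replicate number as a block, each library left out with the same genes tested, and, added after the data were seen, limma-voom on the recovered reads. Tables and figures were made with Python 3.11.15, pandas 2.3.3 and scipy 1.17.1.

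The receptors, the 13 other gene lists and the rule for named genes were chosen with earlier results of these data known. Named are all 8 receptors, up to 3 tested genes with the smallest p of each other list, listed genes that adjoin a receptor gene, the 3 most abundant markers of each cell type list, and the 2 genes most like each receptor among those with a mean of at least 5 RPKM. One gene that this rule names is not reported here. Stab2, Mitf, Nr3c1, Lrp8, Sorl1, Zbtb16, Flvcr1, Nt5dc2, Adgre1, C1qa, Anxa1, Errfi1, Sgk1 and the markers at 0 were named after their values were seen. Where a listed symbol was not in the table, the identifier's current symbol was used.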

Additional observations from a re-analysis of the deposited data

How the results depend on the processing

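Of 97 log2 changes of single receptors under the 14 alternatives, 91 kept their direction and their side of the threshold. Cd163 gave no value with the filter at 5 RPKM. The other 6 concern Cd68: its log2 change was 0.015 with median-of-ratios and 0.019 with upper-quartile scaling (adjusted p = 0.833 and 0.786, limma), the call was lost at -0.155 with no filter (adjusted p = 0.0873), and leaving out 1 library gave -0.179 to -0.135, with the call lost without untreated replicate 1 (-0.152), untreated replicate 3 (-0.142) or treated replicate 2 (-0.153). Over all alternatives Marco ranged from 4.62 to 5.58, Cd163 from 2.01 to 4.74, Stab1 from 1.24 to 1.45, Colec12 from 0.955 to 1.17, Msr1 from -0.711 to -0.467 and Scarb1 from -1.22 to -0.946. The counts over all genes were 3234 higher and 2832 lower with median-of-ratios scaling, and 3280 and 2814 with upper-quartile scaling, which shift every change upward by construction. The filter at 5 RPKM left 1569 higher and 3144 lower calls among fewer genes. Limma-voom on the recovered reads called 1763 higher and 5020 lower and gave Cd163 a change of 4.74. With the filter removed, Olr1 passed as lower (log2 change -0.06, adjusted p = 0.0103) on 0 to 4 reads per library.

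Nothing in the labels says that the replicate numbers pair the libraries. Deviations of same-numbered libraries from their group means correlated at 0.197, -0.031 and -0.162 over tested genes. Untreated replicate 2 went best with treated replicate 3 (0.326). With 3 libraries per group these deviations constrain one another, so they cannot decide whether libraries were paired. With the number as a replicate block 1904 genes were higher and 4627 lower, and the receptor calls were the same (Cd68, adjusted p = 0.0295).

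Depth limits Olr1, and the untreated values of Cd163 and Marco, which rest on 12 to 47 reads per library.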
